A study of Mus musculus with 4 samples.

Results

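Cone phototransduction genes are the 10 genes that encode the light-signalling proteins of cones: 2 opsins (Opn1sw, Opn1mw), cone arrestin (Arr3), the 3 subunits of cone transducin (Gnat2, Gnb3, Gngt2), the 2 subunits of cone phosphodiesterase (Pde6c, Pde6h) and the 2 subunits of the cone cyclic nucleotide-gated channel (Cnga3, Cngb3). They were chosen by name and function, with earlier results of these data known, and all 10 were found among 22558 gene symbols. Whole retinas, taken from mice about 8 weeks old whose background mixed C57BL/6 with 129, were profiled by RNA-seq. Injured mice (Msi1-CreERT2/+; R26R-DTA/+) carried a ligand-inducible Cre recombinase named for the Musashi 1 gene together with a Cre-dependent allele of diphtheria toxin fragment A (DTA). The toxin blocks elongation factor 2, and the cell that makes it dies. Control mice (+/+; R26R-DTA/+) lacked Cre, so the toxin allele is shared by all groups. The 4 groups were DTA and control at day 1 after injury and DTA and control at day 5, with 1 library in each. The labels do not say in which retinal cells Cre had acted or how many mice gave each library.

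In a cone, an opsin that has caught light activates the transducin alpha subunit, which frees phosphodiesterase from its inhibitory subunit. The enzyme then breaks down cyclic GMP, the channel closes and the cell hyperpolarises, until arrestin binds the opsin and stops it. Rods use the same chain with paralogous subunits. In the mouse, cones are a small minority among the photoreceptors, most of them hold both opsins, and Gnb3 is also used by ON bipolar cells.

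Each group is a single library, so no value has a replicate, an SD or a p-value. Levels are given in FPKM, a fragment count corrected for transcript length and library size. A difference is log2(FPKM + 1) in DTA less that in control. The words rose, fell, higher and lower as a call ask for 3 things: a difference of 1 or more in size, at least 5 FPKM in DTA or control, and a larger difference than the gene shows between the controls of day 5 and day 1. The day 1 DTA file holds only part of the genome, and only Gngt2 and Cnga3 among the 10 genes. The depth, estimated from the most common low FPKM values read as single fragments, was about 99.1 M fragments for DTA and 74.2 M for control at day 1, and 28.9 M for DTA and 35.7 M for control at day 5. The authors' bounds spanned ± 2.15% to 13.2% around their midpoint over the 10 genes in day 5 DTA, and ± 2.04% to 10.2% in day 5 control. They cover fragment counting and assignment, not the spread between mice.

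Promoter sequence was at hand for 6 of the 10 genes (RefSeq, build GRCm38.p6), and 4 of the genes that were lower at day 5 are among these 6. Their 250 bases before the annotated start are shown because these genes moved together. Capitals mark TAATCC, the core of the site bound by the photoreceptor factor CRX, and AGGTCA, the half-site of nuclear receptors such as the thyroid hormone and retinoid X receptors, on either strand. The windows are chr6:29380514-29380763 (minus strand) for Opn1sw, chrX:74127216-74127465 (plus) for Opn1mw, chr3:108092816-108093065 (plus) for Gnat2 and chr6:136954273-136954522 (plus) for Pde6h.
Opn1sw: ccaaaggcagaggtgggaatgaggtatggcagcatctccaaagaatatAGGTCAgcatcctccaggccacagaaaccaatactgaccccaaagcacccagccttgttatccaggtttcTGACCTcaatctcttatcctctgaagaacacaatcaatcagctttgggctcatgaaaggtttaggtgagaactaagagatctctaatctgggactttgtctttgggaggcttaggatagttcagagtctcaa
Opn1mw: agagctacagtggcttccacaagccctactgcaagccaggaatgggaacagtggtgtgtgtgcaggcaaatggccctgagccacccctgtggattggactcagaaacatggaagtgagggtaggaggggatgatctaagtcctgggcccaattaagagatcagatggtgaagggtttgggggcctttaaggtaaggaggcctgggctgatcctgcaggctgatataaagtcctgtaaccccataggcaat
Gnat2: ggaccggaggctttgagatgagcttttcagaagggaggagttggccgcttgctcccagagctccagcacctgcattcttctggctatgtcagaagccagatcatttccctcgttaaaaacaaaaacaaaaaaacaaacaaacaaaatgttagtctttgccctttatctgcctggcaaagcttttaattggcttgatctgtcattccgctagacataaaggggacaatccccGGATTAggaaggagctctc
Pde6h: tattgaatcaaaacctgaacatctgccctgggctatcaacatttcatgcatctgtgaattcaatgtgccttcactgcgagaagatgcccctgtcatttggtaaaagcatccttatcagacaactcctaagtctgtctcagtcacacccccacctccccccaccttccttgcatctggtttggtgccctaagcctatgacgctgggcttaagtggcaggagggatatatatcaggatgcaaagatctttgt

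TAATCC was found once, in Gnat2 on the reverse strand, 19 to 14 bases before the start. Of 32851 promoter windows of the same length in the table, 6.25% hold it. Opn1sw held AGGTCA at 202 to 197 bases before the start and its reverse complement at 132 to 127 bases, and 14% of all windows hold at least 1. TGCTGA, the half-site of the rod factor NRL, was searched as well. It matched in Opn1sw only, on the reverse strand at 199 to 194 bases, where it overlaps the first AGGTCA, and 16.1% of all windows hold it. The windows of Opn1mw, Pde6h, Arr3 and Cnga3 (2 starts) held none of the 3 motifs. A match is a match of letters and not a bound site.

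At day 5 the members moved in different directions. The 2 opsins, the transducin subunits Gnat2 and Gngt2 and the inhibitory subunit Pde6h fell in DTA retina, while Gnb3 rose and the remaining 4 genes were not called. Of 10 genes, 9 reached the floor and were tested, 5 were lower and 1 was higher. Over all 9883 genes tested, 1.77% were lower and 6.75% higher. The median difference of the 10 genes was -1.05 and that of all genes tested was 0.26. In a whole retina, fewer cones and less of a transcript per cone cannot be told apart.

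Both opsins, the light receptors of the cone, were lower at day 5. Opn1sw, the short wavelength opsin, which absorbs ultraviolet light in the mouse (chromosome 6, 29326671 to 29330513, mm9), stood at 17.9 FPKM in DTA, against 195 in control of the same day and 157 in the day 1 control. The DTA value was 10.9-fold lower and lay far below both controls, with a difference of -3.38. By order of FPKM the gene was 4249th in day 5 DTA and 169th in day 5 control. Only 58 of the 9883 genes tested had a lower difference. Opn1mw, the medium wavelength opsin (chromosome X, 71372805 to 71396094), stood at 26.8 FPKM in DTA, against 95.5 in day 5 control and 91.7 in the day 1 control. It was 3.56-fold lower, with a difference of -1.79, and the controls differed by 0.06. Within a library, the ratio of Opn1sw to Opn1mw was 0.666 in day 5 DTA, against 2.04 in day 5 control and 1.71 in the day 1 control. Opn1sw was therefore the higher opsin in both controls and the lower one in DTA, and this order does not depend on how the libraries are scaled. The log2 ratio differed by -1.61 between DTA and control at day 5 and by 0.25 between the controls.

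**Figure D1:**
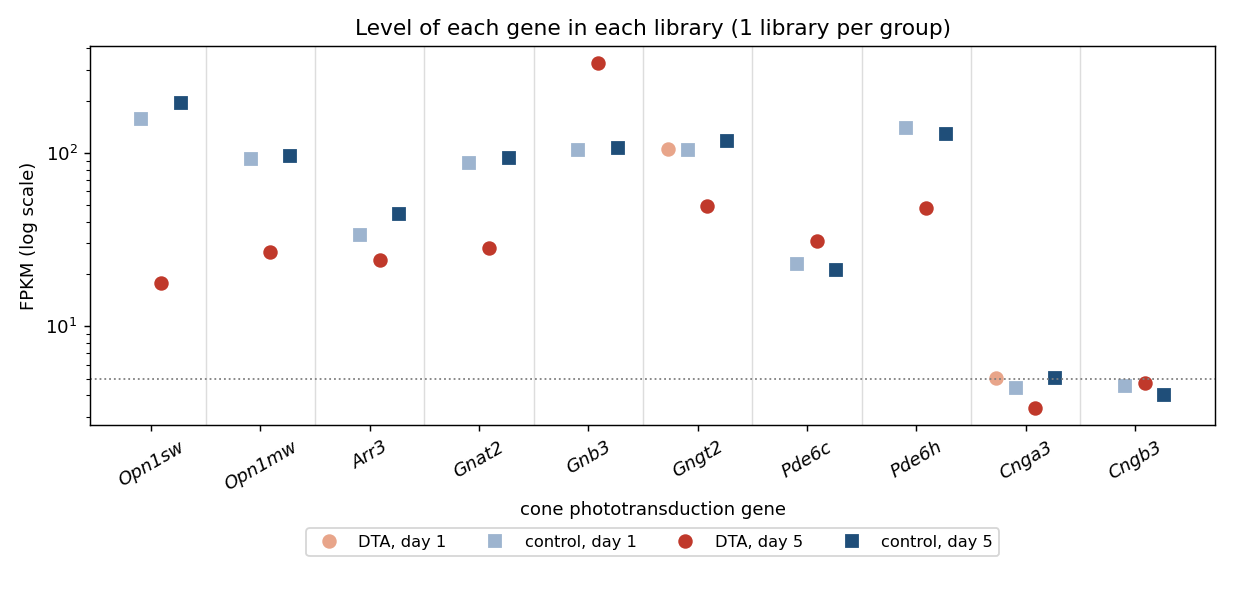
FPKM (log scale) of the 10 cone phototransduction genes in each library, with circles for DTA and squares for control, and the dotted line at 5 FPKM. In day 5 DTA Opn1sw lies at 17.9 and Gnb3 at 328 FPKM, while the controls lie at 195 and 107 FPKM at day 5, and the day 1 DTA file holds only Gngt2 and Cnga3.

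The 3 subunits of cone transducin, the G protein that carries the signal from the opsin, parted ways. Gnat2 encodes the alpha subunit (chromosome 3, 107895986 to 107904203) and was at 28.1 FPKM in day 5 DTA, against 92.8 in day 5 control and 87.3 in the day 1 control. It was 3.30-fold lower, with a difference of -1.69. Gngt2, the gamma subunit (chromosome 11, 95703609 to 95707045), stood at 49.2 FPKM in day 5 DTA, against 117 in day 5 control and 103 in the day 1 control, a difference of -1.24. Its locus overlaps that of Abi3 on the other strand by 182 bases, and Abi3 stood at 1.45 FPKM in DTA and 1.45 in control, far below Gngt2. Both subunits thus lay below the 2 controls.

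Gnb3, the beta subunit (chromosome 6, 124784258 to 124790293), went the other way. It stood at 328 FPKM in day 5 DTA, against 107 in day 5 control and 104 in the day 1 control. The DTA level was 3.06-fold higher, with a difference of 1.61, and the controls differed by 0.05. It was the 66th most abundant transcript in day 5 DTA and the 351st in day 5 control. Of the genes tested, 296 had a higher difference. The ratio of Gnat2 to Gnb3 was 0.0858 in day 5 DTA, against 0.865 in day 5 control and 0.843 in the day 1 control. The ratio of Gngt2 to Gnb3 was 0.150 in DTA, against 1.09 and 0.999 in the day 5 and day 1 controls. The 3 subunits lay between 28.1 and 328 FPKM in day 5 DTA, against 92.8 to 117 FPKM in day 5 control. The neighbouring genes stood far lower than Gnb3: Cdca3, which ends 538 bases away, at 1.78 FPKM in DTA and 0.675 in control, and Leprel2, which lies 819 bases away, at 9.30 in DTA and 6.31 in control.

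Because ON bipolar cells also use Gnb3, markers of these cells were read beside it. None of 10 genes listed as ON bipolar markers was called at day 5. Their median difference was -0.09, within a range of -0.58 to 0.40, and none was listed at 0. Their summed FPKM was 485 in DTA and 517 in control. Grm6, the glutamate receptor that defines these cells, stood at 27.6 FPKM in DTA and 30.9 in control. Gng13, a G protein gamma subunit of the same cells, stood at 127 in DTA and 133 in control. The markers went in both directions. At the ends of the range, Lrit3 stood at 20.7 FPKM in DTA and 31.6 in control, and Trpm1 at 62.4 in DTA and 47.1 in control. Without Lrit3 the lowest difference was that of Pcp2, at -0.27. Whether each listed gene is made by ON bipolar cells alone was not tested. Gnb3 was called higher and these markers were not called. Which cells held the added Gnb3 transcript cannot be read from whole retina, and a change of Gnb3 within ON bipolar cells was not tested.

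The subunits of phosphodiesterase also differed from each other. Pde6h, the inhibitory subunit (chromosome 6, 136903044 to 136912004), stood at 48.0 FPKM in day 5 DTA, against 129 in day 5 control and 139 in the day 1 control. It was 2.69-fold lower, with a difference of -1.41. Its deposited FPKM lies above the authors' own upper bound, at 1.504 times the midpoint of the bounds in DTA and 1.53 times in day 5 control. From the midpoints themselves, an alternative chosen after seeing the data, the difference was -1.37. Pde6c, the catalytic subunit (chromosome 19, 38207271 to 38258441), stood at 31.2 FPKM in DTA, above the 21.0 and 22.9 FPKM of the day 5 and day 1 controls. Its difference of 0.55 was under the size rule, where the median of all genes was 0.26. The ratio of Pde6c to Pde6h was 0.649 in DTA and 0.163 in day 5 control, and 0.164 in the day 1 control. The 2 controls were almost alike in this ratio.

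Cone arrestin and the channel were not called. Arr3, which binds and silences the activated cone opsin (chromosome X, 97800836 to 97813832), stood at 23.9 FPKM in day 5 DTA, against 44.1 in day 5 control and 33.6 in the day 1 control. Its difference of -0.85 missed the size rule. It reached -1.09 after scaling by the median ratio and -1.02 when libraries were scaled to the summed FPKM of genes that are neither photoreceptor genes nor above 1000 FPKM, which would make it a sixth gene called lower. The controls differed in Arr3 by 0.38, the largest difference between them among the 10 genes. Cnga3, the main channel subunit (chromosome 1, 37276106 to 37320229), stood at 3.38 FPKM in day 5 DTA, against 5.04 in day 5 control and 4.44 in the day 1 control, a difference of -0.46. It passed the floor of 5 FPKM through day 5 control alone. Cngb3, the modulatory subunit (chromosome 4, 19207997 to 19437770), stood at 4.69 FPKM in DTA, against 3.999 in day 5 control and 4.51 in the day 1 control. It never reached the floor, so it could not be called, and its difference of 0.19 became -0.01 under median ratio scaling. The ratio of Cnga3 to Cngb3 was 0.721 in DTA, against 1.26 and 0.985 in the day 5 and day 1 controls.

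**Figure D2:**
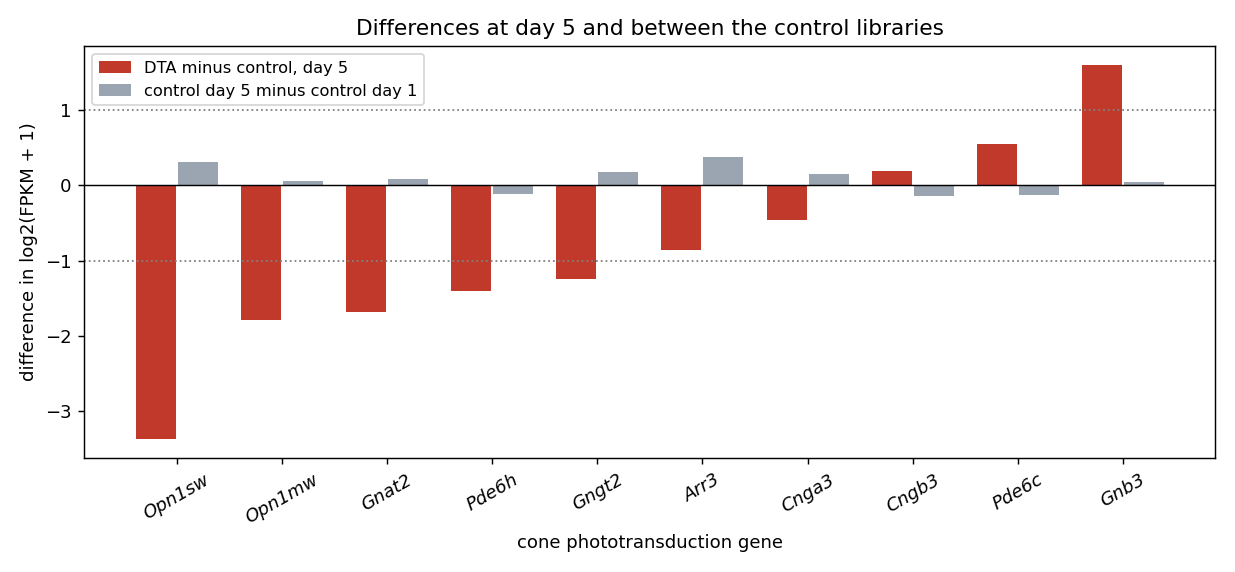
Difference in log2(FPKM + 1) for each gene, as bars: DTA minus control at day 5 beside day 5 control minus day 1 control, with dotted lines at -1 and 1. The bars at day 5 run from -3.38 for Opn1sw to 1.61 for Gnb3, while those between the controls stay between -0.14 and 0.38, and both sets of bars use the day 5 control.

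The 6 genes called were also the 6 most abundant of the 10 in day 5 control, at 92.8 to 195 FPKM, and the 4 not called stood at 3.999 to 44.1 FPKM. The 5 genes that fell are compact, spanning 3.44 kb (Gngt2) to 23.3 kb (Opn1mw) of the genome. Of the others, Gnb3 and Arr3 span 6.04 and 13.0 kb, while Cnga3, Pde6c and Cngb3 span 44.1, 51.2 and 230 kb. Opn1sw, the highest of the 10 genes in both controls, was eighth in day 5 DTA, below Pde6c, Gnat2, Opn1mw and Arr3. These are descriptions of 10 genes and not tests.

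Summed over the 10 genes, FPKM was 561 in day 5 DTA, against 810 in day 5 control and 748 in the day 1 control. Gnb3 alone made up more than the remaining 9 together in DTA, which summed to 233 FPKM there, against 703 in day 5 control and 644 in the day 1 control. The 2 opsins together took 0.0140% of all FPKM in day 5 DTA and 0.0966% in day 5 control.

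**Figure D3:**
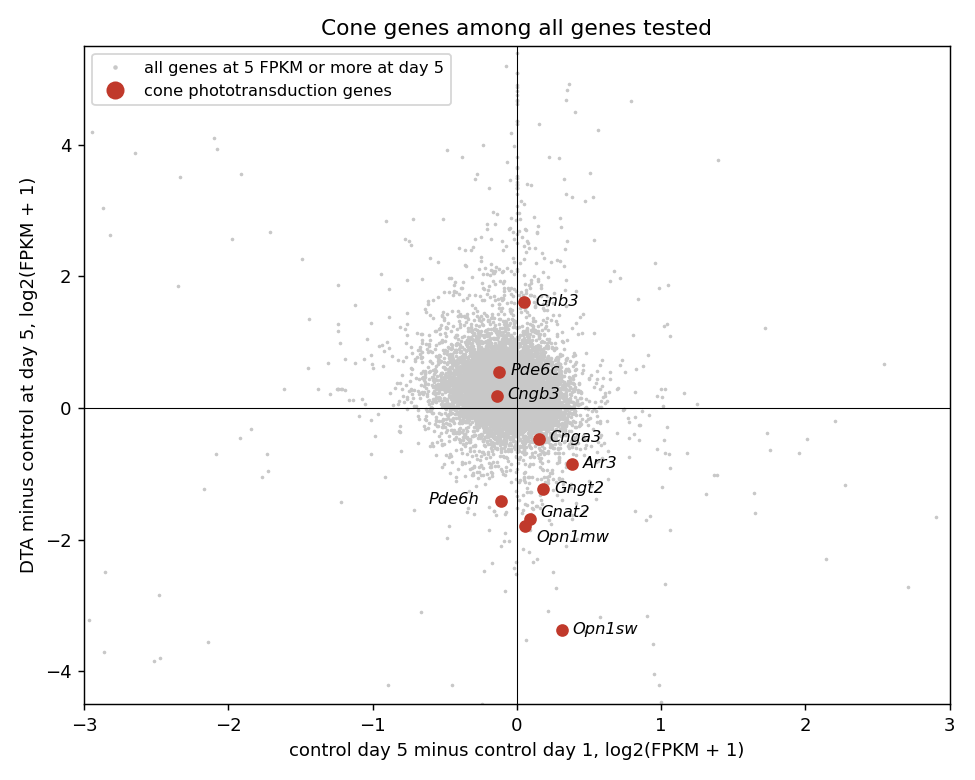
Each gene's difference DTA minus control at day 5 (vertical) against day 5 control minus day 1 control (horizontal), in log2(FPKM + 1), with grey points for the 9883 genes tested and red points for the 10 cone genes. The red points spread along the vertical axis from -3.38 to 1.61 and keep near 0 on the horizontal one, the axes share the day 5 control, and 103 genes lie outside the plotted range.

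At day 1 the question was whether cone transcripts had moved soon after the toxin was induced, and 2 genes could be read. Gngt2 stood at 106 FPKM in DTA and 103 in control, a difference of 0.03. Cnga3 stood at 5.04 FPKM in DTA and 4.44 in control, a difference of 0.15. Neither was called, where 2.67% of 2623 genes were. The sign of the Gngt2 difference turned with the scaling. In DTA retina Gngt2 stood at 106 FPKM at day 1 and 49.2 at day 5, and Cnga3 at 5.04 and 3.38 FPKM. In control retina Gngt2 stood at 103 FPKM at day 1 and 117 at day 5, and Cnga3 at 4.44 and 5.04 FPKM.

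Between the controls no cone gene was called, where 2.57% of 9321 genes were. The differences, day 5 minus day 1, ran from -0.14 to 0.38 with a median of 0.07, and 7 of 10 were above 0. The libraries differed otherwise in lens, pigment epithelium, red blood cell and sex-linked transcripts. Lens markers summed to 14.2 FPKM in day 5 DTA, 235 in day 5 control and 1469 in the day 1 control, and all 6 were called between the controls. Pigment epithelium markers summed to 16.6 FPKM in day 5 DTA, 38.7 in day 5 control and 153 in the day 1 control. Xist, a noncoding RNA made from the inactive X, was at 60.4 FPKM in day 5 DTA, 53.7 in day 5 control and 0.00596 in the day 1 control. Ddx3y, a gene of the Y, was at 0.275 FPKM in day 5 DTA, 0.175 in day 5 control and 15.6 in the day 1 control. The 2 day 5 libraries were thus alike in Xist and Ddx3y, and the day 1 control differed from both. They were not alike in lens markers, of which 4 were called lower in day 5 DTA than in day 5 control. Of the cone genes, Opn1mw and Arr3 are X-linked. The part of these tissues and of sex in the cone values was not tested. Without the 2 X-linked genes, 4 of 8 cone genes were lower and 1 higher at day 5.

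Each cone gene was next set against its rod partner within the same library, a ratio that scaling does not touch. The opsins were not paired here, and 9 pairs of the other subunits were read. Of these, 7 ratios were higher and 2 lower in day 5 DTA than in day 5 control, with a median log2 difference of 1.01. Between the controls the median was -0.21, with a range of -0.55 to 0.48. In 7 pairs the difference at day 5 was larger in size than that between the controls. These are not the same 7: they include the lower ratio of Arr3 to Sag and leave out the higher ratio of Pde6h to Pde6g. Pde6c was paired with both Pde6a and Pde6b, so these pairs are not independent.

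The alpha subunits illustrate this. Gnat1, the rod alpha subunit, stood at 739 FPKM in day 5 DTA and 6678 in day 5 control. Gnat2 was 3.81% of Gnat1 in DTA, against 1.39% in day 5 control and 1.94% in the day 1 control. Although Gnat2 itself fell, it fell by less than its rod partner. For the beta subunits, Gnb3 was 92.8% of Gnb1 in DTA, against 7.06% in day 5 control and 8.64% in the day 1 control. Gnb1, which many cell types use besides rods, stood at 354 FPKM in DTA and 1519 in day 5 control. The log2 ratio differed by 3.72, the most of all 9 pairs.

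Channel and phosphodiesterase pairs mostly followed. Cnga3 was 4.41% of Cnga1 in DTA and 2.18% in day 5 control, and Cngb3 was 3.53% of Cngb1 in DTA and 1.29% in day 5 control. The rod channel subunits fell, with Cnga1 at 76.6 FPKM in DTA and 231 in control. The cone subunits were not called, but Cngb3 lay under the floor and could not be, and Cnga3 reached it in day 5 control alone. Pde6c was 7.05% of Pde6a in DTA and 4.10% in day 5 control, and 10.6% of Pde6b in DTA and 3.97% in day 5 control. For the inhibitory subunits the ratio moved less than between the controls, at 6.97% of Pde6g in DTA, against 5.80% in day 5 control and 8.16% in the day 1 control. Gngt2 was 16.4% of Gngt1 in DTA, a value between the 21.2% of day 5 control and the 15.1% of the day 1 control. The arrestins went the other way, since Arr3 was 1.66% of Sag in DTA, against 2.83% in day 5 control and 2.93% in the day 1 control. Sag, rod arrestin, stood at 1444 FPKM in DTA and 1559 in control.

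**Figure D4:**
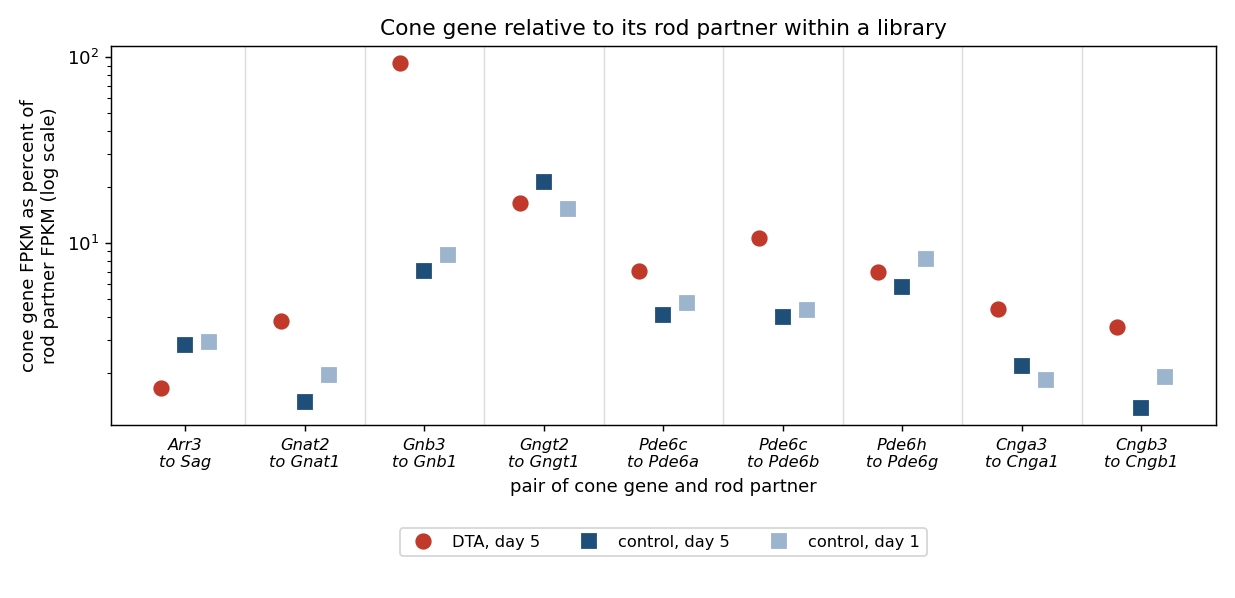
FPKM of each cone gene as a percent of the FPKM of its rod partner in the same library (log scale), for day 5 DTA, day 5 control and day 1 control. Gnb3 reaches 92.8% of Gnb1 in DTA against 7.06% and 8.64% in the controls, while Arr3 to Sag is the pair whose DTA point, at 1.66%, lies below both controls.

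By list, 5 of 9 rod phototransduction genes read were lower at day 5 and none was higher, at a median of -1.22 (range -3.17 to -0.11). These 5 were Gnat1, Gnb1, Pde6g, Cnga1 and Cngb1. Among 12 listed genes of shutoff and recovery in photoreceptors, not all of them cone genes, 5 were lower and none was higher, at a median of -0.70. The photoreceptor type behind these falls cannot be read from whole retina. The 5 were Rcvrn, recoverin (345 FPKM in DTA and 994 in control), Gucy2f, a guanylate cyclase (14.7 in DTA and 34.7 in control), Kcnv2, a potassium channel subunit (64.8 in DTA and 138 in control), Rgs9bp, the anchor of the transducin-inactivating complex (59.4 in DTA and 124 in control), and Guca1b, a guanylate cyclase activator (323 in DTA and 666 in control). Slc24a2, the cone sodium, calcium and potassium exchanger, stood at 7.82 FPKM in DTA and 8.95 in control.

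No cone gene outside phototransduction was called, though only 3 of the 5 reached the floor of 5 FPKM. The 5 read were Thrb, Rxrg, Kcne2, Otop3 and Ccdc136, with a median of -0.65 and a range of -0.92 to -0.03. Thrb, whose cone isoform directs medium opsin expression, stood at 13.0 FPKM in day 5 DTA and 13.3 in day 5 control, a value that sums all isoforms of the gene. Rxrg, its nuclear receptor partner, stood at 2.29 FPKM in DTA and 3.68 in control, and Otop3 at 1.38 FPKM in DTA and 2.84 in control, both under the floor. Kcne2, a potassium channel subunit, stood at 11.9 FPKM in DTA and 23.5 in control. Of the factors that both photoreceptor types need, Crx stood at 219 FPKM in DTA and 330 in control and Otx2 at 70.6 in DTA and 97.9 in control, neither called. The rod factors Nrl (153 FPKM in DTA and 780 in control) and Nr2e3 (43.5 in DTA and 295 in control) fell.

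Other cells changed in the same libraries. All 6 microglia and macrophage markers rose at day 5, where 6.75% of all genes tested were higher. Their summed FPKM was 103 in DTA and 14.0 in control. In day 5 control each lay under the floor, at 0.417 (Aif1) to 4.46 FPKM (C1qb). They passed the floor through DTA alone and could not have been called lower. Of 6 Müller glia markers 2 fell, Glul and Rlbp1, and the list summed to 407 FPKM in DTA and 1292 in control. None of 4 OFF cone bipolar markers was called, with a median of -0.12. The 3 red blood cell markers were not called, and summed to 57.7 FPKM in day 5 DTA, 27.0 in day 5 control and 67.2 in the day 1 control. What part these changes have in the cone values was not tested.

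By the distance between differences over 3 libraries, the genes nearest to Opn1sw among 9117 were Ccdc24 (5.43 FPKM in day 5 DTA and 66.5 in day 5 control), Reep6, a protein of rod membrane trafficking (64.1 in DTA and 549 in control), and Gnat1, at distances of 0.16, 0.31 and 0.33 on the log2 scale. Nearest to Gnb3 were Ripk1, a kinase of cell death and inflammation (6.66 FPKM in day 5 DTA and 1.62 in day 5 control), Rnd1, a small GTPase (12.3 in DTA and 3.36 in control), and Ikzf4, a zinc finger factor (11.2 in DTA and 3.04 in control), at distances of 0.06, 0.07 and 0.07. Gnb3 stood far above these in level.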

How the data were processed

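Per the labels' protocols, retinal RNA was isolated with Sepazol and an Illumina mRNA-seq kit gave the libraries. The deposited values are FPKM per gene with lower and upper bounds and a status, per the file headers, computed by the authors. Cufflinks 2.1.1, CASAVA 1.8.2, bcl2fastq 1.8.4 and build mm9 appear, without roles, per the submitters' processing notes. Aligner and gene annotation were not given in the sources used here. Rows marked FAIL or HIDATA were read as missing, and loci of 1 symbol were summed (Python 3.11.15, pandas 2.3.3). Starts have 1 added, as 10283 of 21691 loci match the annotation after adding 1 and 643 as listed. FPKM of Opn1mw, Arr3, Gnat2, Gnb3 and Pde6h lies above the authors' own upper bound in every library with a value, by up to 1.54 times the midpoint for Pde6h, at a near-constant factor per gene.

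FPKM is relative, so the fall of abundant rod transcripts moves all others. The median of all genes tested at day 5 was 0.26 as deposited, 0.03 after scaling by the median ratio over genes at 5 FPKM or more, and 0.09 after scaling to the summed FPKM of genes that are neither photoreceptor genes nor above 1000 FPKM. Depth was estimated from genes with 1 annotated transcript above 1500 bases. No test was made, since each group has 1 library. The call rule was tried on simulated data. Ratios between genes use no pseudocount. Some genes of the lists are not reported here. Named besides the 10 genes were members of the lists and some, not all, of the neighbours within 5 kb. Also named were the 3 genes nearest in pattern to the members with the largest rise and fall. Members and lists were chosen with earlier results of these data known.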

Additional observations from a re-analysis of the deposited data

Results flagged for a closer look

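The cone genes measured at both days differed in the sign of the DTA minus control difference between the days, and this was not tested, since each group has 1 library. Gngt2 differed by 0.031 at day 1 and by -1.24 at day 5. Cnga3 differed by 0.15 at day 1 and by -0.46 at day 5. The day 1 differences are small, and neither gene was called at day 1. The sign for Gngt2 at day 1 was not stable. Its difference was -0.011 after median ratio scaling, -0.028 after scaling to the sum and -0.15 against the day 5 control. For Cnga3 the day 1 difference was 0.0015 against the day 5 control.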

How the results depend on the processing

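At day 5 the alternatives were pseudocounts of 0.1 and 5, no floor, the control of the other day, 2 scalings, no requirement on the controls, authors' bounds that must not overlap, and, chosen after seeing the data, the midpoint of the bounds and the set without X-linked genes. Over these 10 the count of cone genes called lower ran from 4 to 6 and 1 gene was called higher in each. The 5 genes called lower and Gnb3 were called under every alternative that included them. The median difference of -1.05 was -0.77 against the day 1 control, -1.28 after median ratio scaling, -1.22 after scaling to the summed FPKM of the other, less abundant genes and -0.85 without the X-linked genes. At day 1 the median of 0.09 was -0.074 against the day 5 control. The log2 ratio of the opsins, -1.61, was -1.36 against the day 1 control. The median of the cone to rod log2 ratios, 1.01, was 1.12 with a pseudocount of 1 and 0.90 against the day 1 control. Of all calls at day 5, 20.8% were lower as deposited, 37.7% after median ratio scaling and 33.1% after scaling to the sum. The cause of these shifts was not tested. No paired analysis was possible because each group has 1 library and no test was made. Depth limits Cnga3 most, whose bounds in day 5 DTA spanned ± 13.2%, the widest of the 10 genes there.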
